A study of Mus musculus with 6 samples.

Results

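The 6836 regions described here are stretches of the mouse genome crowded with CpG dinucleotides that carried almost no methylation in wild-type (WT) neocortex. They are 6836 of 7070 CpG-dense islands. An island was a run of at least 5 CpGs, each with more than 20 listed CpGs within 250 bp on either side, itself included, and with gaps of at most 500 bp between neighbours. The CpGs were autosomal and had at least 10 reads in all 6 libraries. An island was kept when the unweighted mean methylation level of its CpGs, averaged over the 3 WT libraries, was under 5%. Of the other islands, 137 were intermediate in WT (5% to under 50%) and 97 were methylated (50% or more). The islands were thus chosen by their WT levels, so their WT levels and the genotype difference over them are a description. A fit over CpG-dense islands of any methylation level gave p-values that are printed for single islands, but for islands chosen in this way they are no independent test.

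The libraries came from the neocortex of mice at postnatal day 5 and were made by reduced representation bisulfite sequencing (RRBS). In RRBS the enzyme MspI cuts DNA at CCGG, and bisulfite converts unmethylated cytosine so that it is read as thymine. There were 3 libraries labelled WT and 3 labelled Chd8+/-, heterozygous for the gene of the chromatin remodeller CHD8 and used as a mouse model of the CHD8-linked neurodevelopmental disorder. The labels give no allele, strain or sex, and do not say that samples came from separate animals, so a p-value here reflects sample-to-sample spread that may be technical. Whole neocortex mixes neurons, glia and vessel cells, and a level is an average over them.

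Most cytosines of CpGs in vertebrate DNA are methylated, and the methyl mark slowly turns CpG into TpG over evolution. CpG islands escape this because they stay unmethylated in the germ line, and they surround the start sites of housekeeping genes and of many developmental regulators. Proteins with a CXXC domain bind unmethylated CpGs there, and some bring enzymes that methylate a particular lysine of histone H3. DNA methyltransferases avoid that mark, which is not so for methylation of every lysine. CHD8 is an ATP-dependent remodeller found at many active promoters of this kind.

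Coverage summed over the listed CpG cytosines was 45498222 to 54818138 in WT and 32285980 to 39820333 in Chd8+/-, so the genotypes did not overlap in depth and Chd8+/- was the shallower. Replicate 3 of each genotype stood apart from the rest: its reads on chromosome X were 2.58% (WT) and 2.56% (Chd8+/-) of the sum, against 1.18% to 1.21% in the other 4 libraries. The islands are autosomal. Cytosines outside CpGs were read as unconverted in 0.319% ± 0.00291 (SD, n = 3) of cases in WT and in 0.341% ± 0.0117 in Chd8+/-. The labels name no molecular identifiers, so reads need not be independent molecules.

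Promoters of 6 genes show what such an island looks like beside islands that were not kept. They were placed on the mm39 genome of the files by the spacing of their CpGs, and the letters are RefSeq promoters (GRCm38.p6) from 250 bases before to 50 bases after the start site, written 5′ to 3′ along the gene. Capitals mark the CpGs with at least 10 reads in all 6 libraries. Emx1 (a transcription factor of the developing neocortex, chr6:85164663-85164962, plus strand), Ctnnb1 (beta-catenin of the Wnt pathway, chr9:120762394-120762693, plus strand), Dnmt1 (the maintenance DNA methyltransferase, chr9:20863870-20864169, minus strand) and Pax2 (a regulator of kidney and ear development, chr19:44745095-44745394, plus strand) lie in unmethylated islands. Mcts2 (an imprinted retrogene, chr2:152528818-152529117, plus strand) lies in an intermediate island and Ddx4 (a germ cell RNA helicase, chr13:112788795-112789094, minus strand) in a methylated one.
Emx1: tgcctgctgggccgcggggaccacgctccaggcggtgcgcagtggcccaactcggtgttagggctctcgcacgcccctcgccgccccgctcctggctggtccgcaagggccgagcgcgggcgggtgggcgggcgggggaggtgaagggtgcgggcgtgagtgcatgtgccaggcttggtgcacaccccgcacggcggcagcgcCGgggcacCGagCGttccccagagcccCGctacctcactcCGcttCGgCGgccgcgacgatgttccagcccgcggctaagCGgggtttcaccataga
Ctnnb1: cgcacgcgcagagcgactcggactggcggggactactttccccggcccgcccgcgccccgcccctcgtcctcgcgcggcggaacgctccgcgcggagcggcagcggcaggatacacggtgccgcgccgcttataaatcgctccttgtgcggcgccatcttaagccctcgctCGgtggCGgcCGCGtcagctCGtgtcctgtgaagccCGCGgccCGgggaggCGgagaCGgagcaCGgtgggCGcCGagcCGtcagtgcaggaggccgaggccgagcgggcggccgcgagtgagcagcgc
Dnmt1: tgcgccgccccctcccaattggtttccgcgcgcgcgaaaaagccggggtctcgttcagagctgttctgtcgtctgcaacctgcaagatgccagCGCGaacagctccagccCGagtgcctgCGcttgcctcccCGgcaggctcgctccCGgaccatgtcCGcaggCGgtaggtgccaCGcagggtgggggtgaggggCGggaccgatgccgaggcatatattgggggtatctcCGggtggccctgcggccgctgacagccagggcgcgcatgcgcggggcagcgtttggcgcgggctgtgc
Pax2: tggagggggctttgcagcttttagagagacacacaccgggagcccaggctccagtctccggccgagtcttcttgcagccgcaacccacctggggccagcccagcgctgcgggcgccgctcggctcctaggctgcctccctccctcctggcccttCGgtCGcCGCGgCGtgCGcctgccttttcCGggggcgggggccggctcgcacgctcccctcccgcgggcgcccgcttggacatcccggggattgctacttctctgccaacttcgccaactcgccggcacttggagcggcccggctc
Mcts2: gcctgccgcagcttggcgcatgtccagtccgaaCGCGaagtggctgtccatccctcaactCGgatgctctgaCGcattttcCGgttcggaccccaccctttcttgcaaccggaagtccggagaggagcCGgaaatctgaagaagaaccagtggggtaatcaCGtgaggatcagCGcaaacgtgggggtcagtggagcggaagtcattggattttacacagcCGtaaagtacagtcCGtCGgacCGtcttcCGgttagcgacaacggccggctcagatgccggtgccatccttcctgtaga
Ddx4: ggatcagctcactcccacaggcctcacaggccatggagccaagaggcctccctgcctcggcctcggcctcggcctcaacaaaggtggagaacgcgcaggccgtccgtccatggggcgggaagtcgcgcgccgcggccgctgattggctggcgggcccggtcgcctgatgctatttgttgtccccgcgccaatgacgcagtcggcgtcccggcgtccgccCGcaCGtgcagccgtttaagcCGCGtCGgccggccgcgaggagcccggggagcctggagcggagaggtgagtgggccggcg

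The Emx1 window holds 37 CpGs, of which 8 were measured, and none of these had a methylated read in any library. With 117 reads in the shallowest library, a count of 0 allows a level of up to 2.56% there. Positions are counted from the start base as 0 to the C of the CpG on the plus strand of the genome. In Ctnnb1, 13 of the 14 measured CpGs had no methylated read in any library. The exception was the CpG of the CCGG at −36 bp, at 0%, 2.78% and 0% for WT and 6.06%, 0% and 0% for Chd8+/-. In Dnmt1 the methylated reads likewise came only from CCGG sites: the CpG at −17 and the CpG at −117 were above 0, and the CpG of the CCGG at −102 and all 8 CpGs outside CCGG were at 0 in every library. Pax2 had methylated reads at 2 of its 7 measured CpGs, the CCGG at −67 and a CpG outside CCGG at −96, which reached 33.3% in Chd8+/- replicate 2 alone.

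The promoters outside the unmethylated class were unlike these in every library. The 13 measured CpGs of Mcts2 averaged 56.5%, 50.9% and 49.1% for WT and 38.9%, 63.7% and 86.9% for Chd8+/-, so the Chd8+/- libraries fell on both sides of WT. The 5 measured CpGs of Ddx4 averaged 64.0%, 83.8% and 69.6% for WT and 92.7%, 78.4% and 83.8% for Chd8+/-.

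The unmethylated islands were short stretches as seen by RRBS. They held 82856 measured CpGs in all, between 5 and 71 per island with a median of 10 and quartiles of 7 and 15. The distance from the first to the last measured CpG ran from 10 to 3543 bp, with a median of 251 bp and quartiles of 113 and 456 bp. There were 233 islands (3.41%) that spanned 1000 bp or more and 1557 (22.8%) that spanned under 100 bp. The mean CpG density in an island had a median of 29.75 listed CpGs in 500 bp. The 137 intermediate islands had a median of 9 CpGs and 211 bp, and the 97 methylated islands 8 CpGs and 193 bp. Since RRBS sees only MspI fragments of a selected length, a span is the measured stretch and not the whole CpG island.

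The 3 islands with the most measured CpGs were long tracts with methylation of at most 1.15% in every library. The island at chr3:58321886-58323958 held 71 CpGs and stood at 0.263%, 1.13% and 0.688% for WT and 0.0971%, 1.15% and 0.178% for Chd8+/-. The island at chr6:39848485-39850300 held 63 CpGs and stood at 0.546% ± 0.296 for WT and 0.481% ± 0.322 for Chd8+/- (SD, n = 3). The island at chr11:63810975-63813253 held 60 CpGs and the promoter of Hs3st3b1, a sulfotransferase that modifies heparan sulfate, and stood at 0.498% ± 0.108 and 0.409% ± 0.279. In all 3 the genotypes overlapped.

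The limit of 5% fell in a thin part of the distribution. The 3 islands just under it had WT means of 4.99%, 4.98% and 4.94%, at chr8:72015277-72015410, chr11:75057225-75057650 and chr12:84616711-84616794. The 3 just above it had WT means of 5.05%, 5.06% and 5.07%, at chr4:132765738-132766374, chr5:135287393-135287425 and chr3:38941926-38942640. The spread between libraries at these islands was wide, with a WT SD of 3.40 points in the first and 4.29 points in the fourth. In all, 266 of the 6836 islands had a WT mean of 2% or more and 62 islands fell between 5% and 10%.

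**Figure D1:**
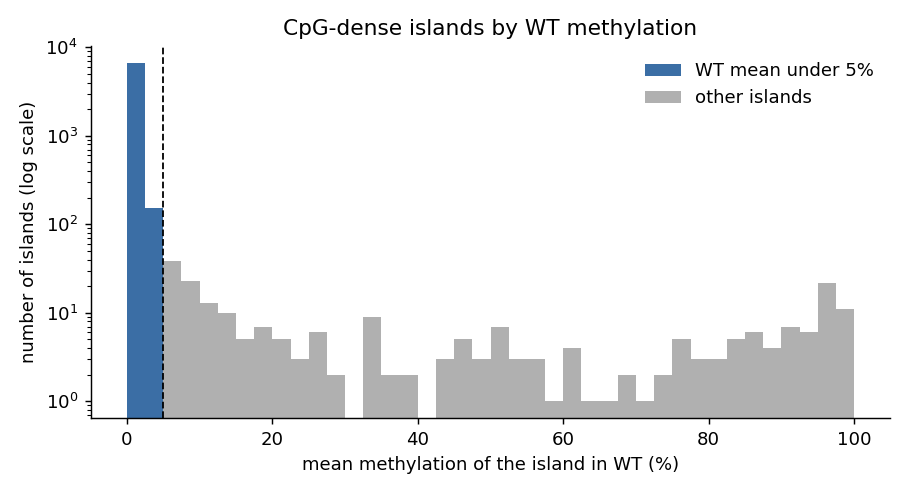
Number of CpG-dense islands (log scale) by mean methylation level in WT (percent, bins of equal width). Blue bars are the 6836 islands under the dashed limit of 5% and grey bars the 137 intermediate and 97 methylated islands, which are spread thinly from 5% to 100%.

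Residual methylation in the unmethylated islands was low, with a mean between 0.542% and 0.600% in each library. The mean over islands was 0.566%, 0.573% and 0.542% for WT and 0.584%, 0.600% and 0.550% for Chd8+/-. The group means were 0.560% ± 0.0164 and 0.578% ± 0.0252 (SD, n = 3), a difference of 0.0178 points with a standard error of 0.0173. The groups overlapped, with Chd8+/- replicate 3 below WT replicates 1 and 2. The difference was −0.0164 points when the islands were chosen by a Chd8+/- mean under 5% instead, and 0.00698 points without Chd8+/- replicate 2, 0.00856 points without WT replicate 3 and 0.0316 points without Chd8+/- replicate 3. The difference was 0.0224 points among the 4 libraries with the lower share of chromosome X and 0.00863 points in the pair with the higher share. When each library's unconverted share outside CpGs was subtracted, WT stood at 0.241% ± 0.0186 and Chd8+/- at 0.237% ± 0.0147. That share is of the whole library, and promoter CpGs outside CCGG lay below it in every library, as given further down. The subtracted levels are therefore no estimate of true methylation in the islands. For comparison, the intermediate islands averaged 16.7% ± 0.512 for WT and 17.8% ± 0.503 for Chd8+/-, and the methylated islands 82.8% ± 1.31 and 83.4% ± 1.16 (SD, n = 3).

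The distribution over islands differed more than the mean. The median island stood at 0.169%, 0.246% and 0.0943% for WT and at 0.0711%, 0% and 0% for Chd8+/-. Islands at 5% or more in a single library numbered 60, 51 and 66 for WT and 93, 117 and 85 for Chd8+/-. In both measures the genotypes did not overlap, and neither did their depths. The rule also held the WT mean of each island under 5%, but not the Chd8+/- mean. This limits the WT counts at 5% or more, so no genotype difference is read from these counts. The share of islands without any methylated read was higher in the shallower libraries. It was 43.2%, 35.3% and 47.7% for WT and 48.7%, 56.6% and 55.4% for Chd8+/-. The median island had 444, 551 and 398 reads in the WT libraries and 367, 287 and 296 reads in the Chd8+/- libraries, so the 6 libraries ranked by this share in the reverse of their order by depth. Genotype and depth cannot be told apart for these measures. Across all 6 libraries together, 446 islands (6.52%) had no methylated read and 722 (10.6%) had at least 1 in every library.

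The order of islands by level was weakly shared between libraries. Across the 6836 islands the rank correlation of levels was 0.16 to 0.19 for each pair of libraries, within and between genotypes. Pearson's r was 0.141 to 0.254. These are descriptions over islands of uneven depth, not tests. At the level of CpGs, 58510 of 82856 (70.6%) had no methylated read in any library. The 1562 CpGs (1.89%) with a mean of 5% or more held 17.2% of all methylated reads. A mean of 20% or more was found at 23 CpGs in 19 islands, and 1 CpG reached 20% in all 6 libraries.

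When islands were sorted by their WT level, the Chd8+/- libraries, which the choice did not use, had a higher group mean in each successive bin. The 1417 islands with a WT mean under 0.1% stood at 0.404% ± 0.0155 for Chd8+/- and the 1095 at 0.1% to 0.25% stood at 0.431% ± 0.0166 (SD, n = 3). The 1584 islands with a WT mean of 0.25% to 0.5% stood at 0.472% ± 0.0246 and the 1727 at 0.5% to 1% stood at 0.564% ± 0.0104. The steps below 0.5% were close to the spread between libraries, and Chd8+/- replicate 3 was level between the second bin and the third. Chd8+/- levels were 0.837% ± 0.109 for the 747 islands with a WT mean of 1% to 2% and 2.11% ± 0.193 for the 266 islands at 2% to 5%. Over islands outside the class, the 62 islands with a WT mean of 5% to 10% stood at 6.78% ± 0.629 and the 35 at 10% to 20% stood at 15.5% ± 1.76. The WT level set the bins, so no difference from WT is read from them. In all, 6796 islands were under 5% in both group means, and 40 members (0.585%) had a Chd8+/- mean of 5% or more, 6 of them of 10% or more.

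**Figure D2:**
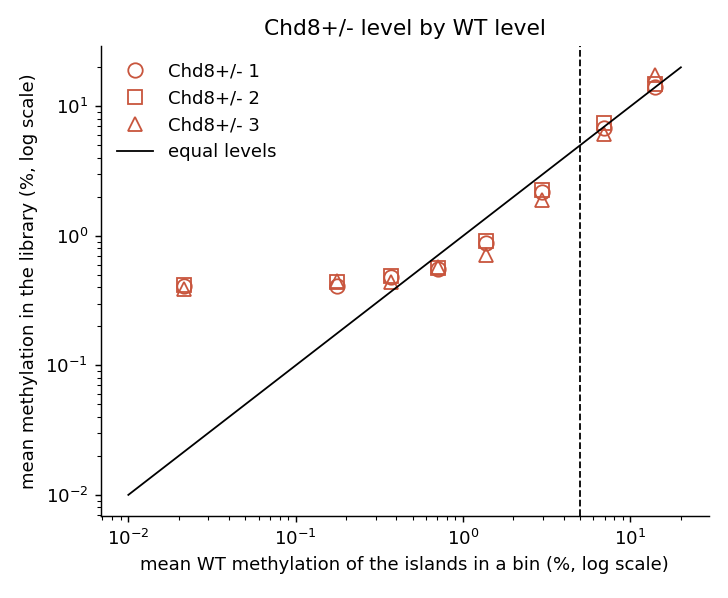
Mean level in each Chd8+/- library (percent, log scale) of islands binned by their WT mean (percent, log scale), with the line of equal levels and the dashed limit of 5%. Chd8+/- means stay between 0.404% and 0.564% over the bins with a WT level below 1% and reach 2.11% in the bin of 2% to 5%.

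Island CpGs in sparser surroundings, and islands with few measured CpGs, carried slightly more residual methylation in both genotypes. CpGs with 21 to 25 listed CpGs in their 500 bp window averaged 0.646% ± 0.0267 for WT and 0.673% ± 0.0447 for Chd8+/- (SD, n = 3). CpGs with 41 to 50 averaged 0.439% ± 0.0349 and 0.463% ± 0.00354. By size, the 1405 islands with 5 or 6 CpGs averaged 0.623% ± 0.0429 and 0.613% ± 0.0605, and the 414 islands with 25 or more CpGs averaged 0.487% ± 0.0627 and 0.515% ± 0.0128. The 1676 islands with 7 to 9 CpGs averaged 0.576% ± 0.014 and 0.6225% ± 0.0407, so Chd8+/- was not ordered among the smallest islands. By chromosome, the WT mean ran from 0.482% on chromosome 16 (215 islands) to 0.645% on chromosome 8 (386 islands).

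A larger share of the unmethylated islands than of the others held a start site that could be placed, a difference that was not tested. RefSeq promoters with at least 8 listed CpGs were placed by CpG spacing, and 8398 were placed uniquely, 8390 of them on the gene's own chromosome. The other 8 were left out. Of the 6836 unmethylated islands, 2392 (35.0%) held a placed promoter, against 12 of the 137 intermediate islands (8.76%) and 6 of the 97 methylated islands (6.19%). These 2392 islands held 2970 promoters of 2729 genes, and 346 held promoters on both strands. Islands with a placed promoter were larger, with a median of 12 CpGs and 322 bp against 9 CpGs and 220 bp. They averaged 0.495% ± 0.0115 for WT and 0.485% ± 0.0195 for Chd8+/-, against 0.596% ± 0.0191 and 0.628% ± 0.0341 for the others (SD, n = 3). Placement needs enough listed CpGs, so an island without a placed promoter may still hold a start site.

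The lowest methylation in these genes lay just upstream of the start site and rose on both sides. In the 100 bp before the start site the level was 0.477% ± 0.0294 for WT and 0.459% ± 0.0129 for Chd8+/- (SD, n = 3). From 250 to 500 bp upstream it was 1.83% ± 0.126 and 1.88% ± 0.0862, and from 1000 to 2000 bp upstream it was 32.1% ± 0.485 and 32.0% ± 1.33. Downstream, it was 1.35% ± 0.0689 and 1.31% ± 0.105 from 250 to 500 bp and 26.2% ± 0.316 and 26.3% ± 0.610 from 1000 to 2000 bp. The 2 genotypes overlapped in each of these bands. Within 100 bp upstream, 96.1% of the CpGs lay in CpG-dense islands of any methylation level, and beyond 1000 bp upstream 23.6% did. Most such islands were chosen by the rule.

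**Figure D3:**
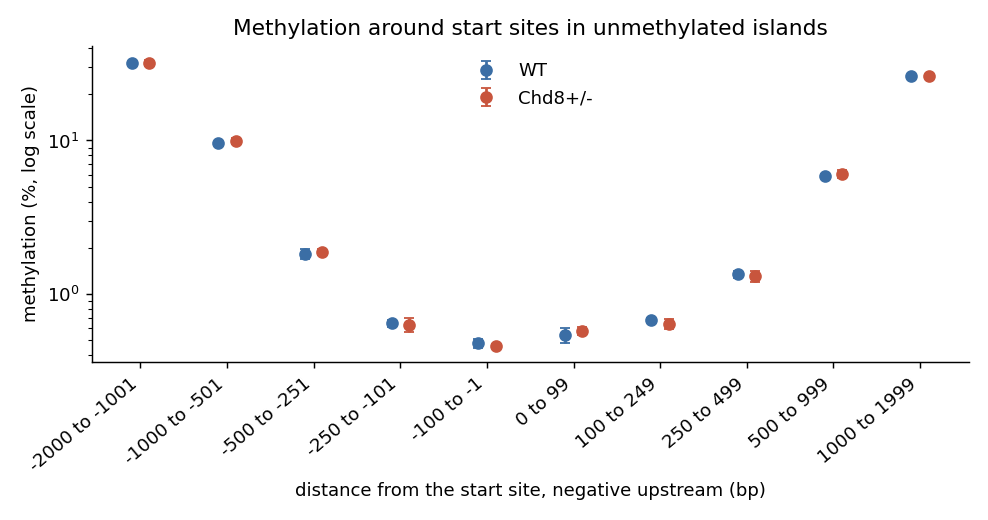
Methylation level (percent, log scale) by distance from the start site (bp, negative upstream) for genes with a promoter in an unmethylated island. Points are means of 3 libraries and bars are SD. WT and Chd8+/- overlap, with the lowest level in the 100 bp before the start site.

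GC boxes were more frequent and TATA boxes less frequent in the promoters of these islands than in all promoters. GGGCGG, the GC box bound by SP1-family factors, was found on either strand in 79.1% of the 2729 promoters (1 per gene), against 35.9% of all 32544 RefSeq promoters of the same length and 69.8% of the 14247 with at least 10 CpGs. TATAAA was in 3.77%, against 13.6% and 5.63%. CCGGAAG, the core bound by ETS factors, was in 25.3%, against 8.91% and 17.3%, and it contains an MspI site. CCAAT was in 33.8%, against 37.4% and 35.7%. The rule chose CpG-dense DNA cut by MspI, and CpG-rich words are more frequent in such DNA, so these shares are a description of letters.

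Residual methylation in the promoters was concentrated at the MspI sites themselves. The 19263 measured promoter CpGs in unmethylated islands comprised 3600 within CCGG and 15663 in other sequence. CpGs within CCGG stood at 1.16%, 1.19% and 1.23% for WT and 1.16%, 1.19% and 1.23% for Chd8+/-. Libraries with the same replicate number gave the same value to this precision, although the labels do not pair them. The other CpGs stood at 0.306%, 0.278% and 0.272% for WT and 0.243%, 0.270% and 0.274% for Chd8+/-. The group means were 1.19% ± 0.0330 and 1.19% ± 0.0314 within CCGG, and 0.285% ± 0.0184 and 0.262% ± 0.0168 elsewhere (SD, n = 3). The gap of 0.919 points, the mean over all 6 libraries, was present in each library and larger than the spread between replicates.

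Outside CCGG the promoter CpGs were thus below the unconverted share of cytosines outside CpGs in every library. CpGs within CCGG made up 3600 of the 19263 but held 54.6% of the methylated reads. No methylated read was found in any library at 32.5% of them and at 82.7% of the others. Their median coverage was 38 reads against 31. Among the 9 other sequence contexts of a CpG with 1 base on each side, counted with their reverse complements, the WT means ran from 0.168% for ACGT to 0.316% for ACGG, and the Chd8+/- means from 0.127% for ACGT to 0.352% for CCGA. No context other than CCGG came near 1%.

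The contrast held along the promoter and outside the islands. From −250 to −150 bp, CpGs within CCGG stood at 1.25% for WT and 1.30% for Chd8+/-, and the others at 0.295% and 0.323%. From −50 to 50 bp the values were 1.12% and 1.13% against 0.277% and 0.228%. At promoter CpGs in no island with a WT mean under 5%, the Chd8+/- libraries, which that limit did not use, gave 1.20% ± 0.0362 for 2646 CpGs within CCGG and 0.402% ± 0.0189 for 6901 others (SD, n = 3). At promoter CpGs with a WT mean of 95% or more, the Chd8+/- level was 96.3% ± 0.558 for 18 CpGs within CCGG and 94.0% ± 2.79 for 25 others. MspI sites are where RRBS fragments begin and end, and the part of fragment ends, end repair or read trimming in this contrast was not tested.

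**Figure D4:**
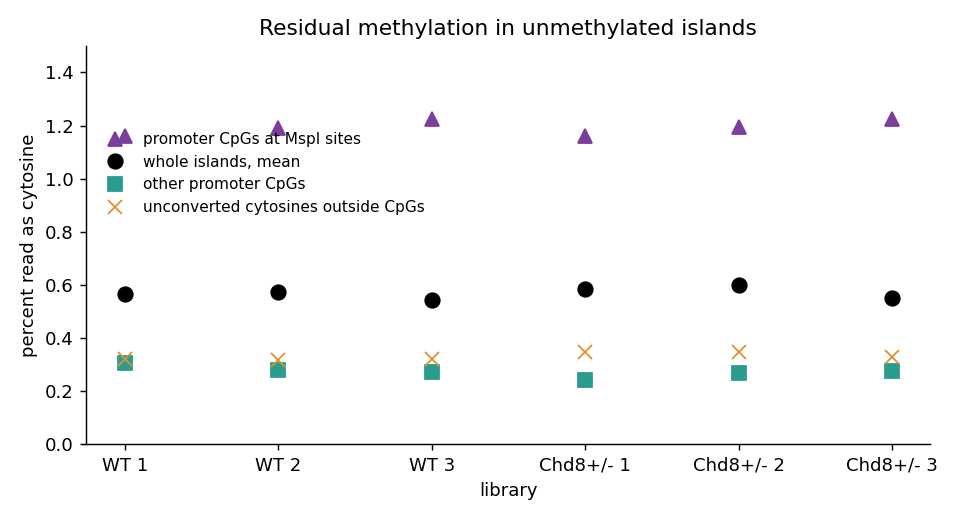
Percent of reads with cytosine in each library: promoter CpGs at MspI sites, means of whole islands, other promoter CpGs, and cytosines outside CpGs. In all 6 libraries the MspI sites lie at 1.16% or more, whole islands between 0.542% and 0.600%, and the other promoter CpGs below the unconverted share.

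Methylation rose slowly outside the islands. Inside, bands from 0 to 24 bp up to 200 bp or more from the nearer edge stayed between 0.557% and 0.672% for WT and between 0.573% and 0.637% for Chd8+/-. These inner CpGs were used by the rule. Outside, CpGs 1 to 50 bp from the edge averaged 1.01% ± 0.0642 for WT and 1.00% ± 0.0426 for Chd8+/-, and those at 200 to 500 bp averaged 4.57% ± 0.0353 and 4.78% ± 0.226 (SD, n = 3). At 500 to 1000 bp the level was 13.9%, 13.8% and 13.6% for WT and 13.5%, 13.8% and 14.9% for Chd8+/-. The Chd8+/- mean there was 0.265 points higher, and −0.145 points, that is lower, without Chd8+/- replicate 3. At 1000 to 2000 bp the level was 35.0% ± 0.201 and 35.5% ± 0.769.

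**Figure D5:**
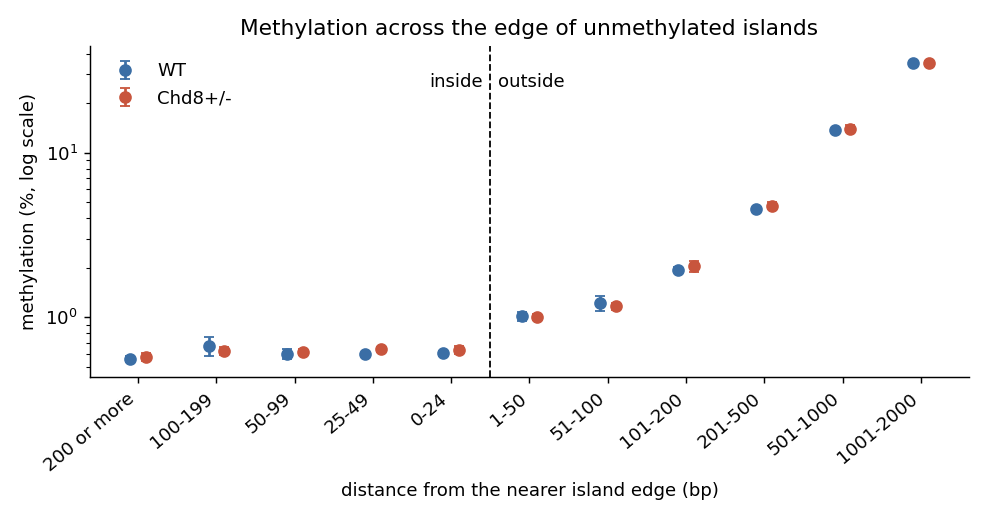
Methylation level (percent, log scale) by distance from the nearer edge of an unmethylated island (bp), inside and outside the dashed line. Points are means of 3 libraries and bars are SD. In WT the level is 0.605% in the outermost 24 bp inside, 1.01% in the 50 bp outside and 35.0% at 1000 to 2000 bp, and Chd8+/- follows it.

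On most sides the measured DNA next to the island was unmethylated as well. Of 13672 island sides, 8601 had a measured CpG within 2000 bp outside. The nearest such CpG had a WT mean under 5% on 7050 sides (82.0%) and at 50% or more on 471 sides (5.48%). A CpG of 50% or more was met within 2000 bp on 1488 sides in WT, at a median distance of 1170 bp (quartiles 798 and 1567 bp), and on 1522 sides in Chd8+/-, at a median of 1140 bp (768 and 1563 bp). On 1381 sides both genotypes had such a CpG. It was the same CpG on 1227 of these, nearer to the island in Chd8+/- on 86 and farther on 68.

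Flanks were tested for a genotype difference because the rule did not use them. A flank was the CpGs 1 to 1000 bp outside an island and in no island, at least 3 of them, and 5093 flanks of all islands were fitted together. By the edgeR quasi-likelihood test with Benjamini-Hochberg adjustment, 0 of 5093 flanks were called at an adjusted p under 0.05 (background 0%), and the lowest adjusted p was 0.9325. Of the 4922 flanks of unmethylated islands, 156 had an unadjusted p under 0.05, 79 higher and 77 lower in Chd8+/-, against a background of 3.14% of all flanks (1.59% higher, 1.55% lower). By limma 0 were called and 274 had an unadjusted p under 0.05, 181 higher and 93 lower, against 5.6% of all flanks. The share of all flanks by direction was not computed for limma. It was run on the log2 ratio of methylated to unmethylated reads, with 1 added to each. At few methylated reads this ratio depends on depth, which differed between genotypes. The part of depth in the limma directions was not tested. The difference had a median of −0.0557 points and a mean of 0.116 points over these 4922 flanks, with 2349 higher and 2572 lower in Chd8+/-.

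The flanks with the smallest p had group means of at most 3.58% in both genotypes, and 3 of the 6 were at 0 in every library of a genotype. The right flank of the island at chr11:59730257-59730514 (5 CpGs) stood at 0.171%, 0% and 0% for WT and 1.42%, 5.05% and 4.26% for Chd8+/- (edgeR adjusted p = 0.9325). The left flank of the island at chr11:44509107-44509149 stood at 0.0378% ± 0.0327 and 0.717% ± 0.108, and that at chr12:56661419-56661439 was at 0 in all WT libraries and at 2.36% ± 1.62 in Chd8+/- (SD, n = 3). In the other direction, the right flank at chr11:83742952-83743607 stood at 1.73% ± 0.591 for WT and was at 0 in all Chd8+/- libraries. The left flank at chr7:112806686-112806726, an island with the promoter of the clock transcription factor gene Arntl, stood at 0.881% ± 0.361 and 0.138% ± 0.111. The right flank at chr18:36071429-36071846 stood at 0.948% ± 0.524 for WT and at 0 in all Chd8+/- libraries.

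For the islands themselves no genotype call was made. The fit ran over 6624 islands of any methylation level that had methylated and unmethylated reads, and 6390 of these were unmethylated islands. By the edgeR quasi-likelihood test with Benjamini-Hochberg adjustment, 0 of 6624 were called (background 0%), with a lowest adjusted p of 0.9997. An unadjusted p under 0.05 was found for 158 unmethylated islands, 69 higher and 89 lower in Chd8+/-, beside 2.4% of all islands (1.06% higher, 1.34% lower). By limma 0 were called and 321 had an unadjusted p under 0.05, 209 higher and 112 lower, beside 4.89% of all islands. The limma directions have the same limit by depth as for the flanks, and no background by direction. The members lost to the fit were those without a methylated read. Since the rule used the WT levels, these counts describe the islands.

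Per island the differences were small and went both ways. Of the 6836 islands, 3002 were higher in Chd8+/-, 3385 were lower and 449 were equal, and 5893 (86.2%) differed by at most 1 point. A difference of 3 points or more was found for 48 higher islands, beside 1.47% of all islands, and for 32 lower islands, beside 1.02%. The differences ran from −1.13 points at the 0.05 quantile to 1.25 points at the 0.95 quantile. The 3 libraries of a genotype lay above the 3 of the other without overlap in 131 islands with Chd8+/- higher (1.92%, beside 2.02% of all islands) and in 284 with Chd8+/- lower (4.15%, beside 4.1%). In 146 of these 284 every Chd8+/- library was at 0. An island was at 0 in all Chd8+/- libraries in 1580 cases and in all WT libraries in 945 cases, and the Chd8+/- libraries were the shallower ones.

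The islands with the smallest p that were higher in Chd8+/- differed by under 1 point. The island at chr6:141195238-141195526 (21 CpGs) was at 0 in all WT libraries, which at 1010 reads in the shallowest allows up to 0.297%, and at 0.366%, 0.419% and 1.30% in Chd8+/- (edgeR adjusted p = 0.9997). The island at chr7:132724613-132724662 stood at 0.0191% ± 0.0331 and 0.463% ± 0.292 (SD, n = 3). The island at chr15:57998598-57998811 was at 0 in all WT libraries and at 0%, 1.40% and 0.288% in Chd8+/-.

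The islands with the smallest p that were lower in Chd8+/- included the promoters of 2 known genes. The island at chr5:52270920-52271422 (29 CpGs) stood at 0.475%, 0.0999% and 0.617% for WT and at 0 in all Chd8+/- libraries (edgeR adjusted p = 0.9997). The island at chr2:143757174-143757875 holds the promoter of Dstn, which encodes the actin-severing protein destrin, and stood at 0.751%, 0.788% and 1.22% for WT and at 0 in all Chd8+/- libraries, which at 811 reads allows up to 0.370%. The island at chr2:109720931-109721588 holds the promoter of Lin7c, a scaffold protein of cell junctions, and stood at 0.358% ± 0.0224 and 0.0296% ± 0.0513 (SD, n = 3).

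Larger differences were found at islands of few CpGs and reads, and 3 of them are named after their values were seen. The largest rise was at chr12:3285520-3285566, an island of 5 CpGs with the promoter of Rab10os, at 0%, 4.30% and 0% for WT and 14.6%, 43.6% and 0% for Chd8+/-, from 77 to 261 reads. The third Chd8+/- library was thus as low as WT. The largest fall was at chr18:80365712-80365754, from 8.33%, 5.33% and 0.800% for WT to 0 in all Chd8+/- libraries, where the shallowest had 50 reads. The largest rise without overlap was at chr11:95536325-95536497 (7 CpGs), from 2.72%, 4.34% and 3.98% to 10.2%, 9.97% and 12.8% (edgeR adjusted p = 0.9997). Among islands just under the limit, that at chr11:75057225-75057650 stood at 22.6% in Chd8+/- replicate 1 and at 6.35% and 4.01% in the other Chd8+/- libraries.

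Genes of chromatin and DNA methylation were examined next, Chd8 first. A level given for a gene here and below is that of the measured CpGs in its promoter window. It is not that of a whole island unless stated. A promoter was counted in an island if at least 3 of its measured CpGs lay in it. Those in no island need not be methylated: some had 0 measured CpGs, and others, such as Dlx1 and Lhx6, were low. The Chd8 promoter was placed at chr14:52495168-52495467, and 0 of its CpGs had 10 reads in all 6 libraries, so it is not analysed here and the genotype labels were not checked by it. Of 9 CHD remodeller genes 3 were placed and 0 lay in an unmethylated island. Chd9 also had 0 measured CpGs, and Chd4 stood at 1.65% ± 2.355 for WT and 0 in all Chd8+/- libraries over 3 CpGs. Of 13 chromatin genes linked to autism 6 were placed, of which 4 had 0 measured CpGs and 2 lay in unmethylated islands. These were Kmt2a, a histone H3 lysine methyltransferase, at 0.0866% ± 0.150 for WT and 0 in all Chd8+/- libraries over 7 promoter CpGs (SD, n = 3), and Setd1a, an enzyme of the same kind, at 0 in all 6 libraries over 3 promoter CpGs, where 30 reads in the shallowest allow up to 10%. Over the whole island, Kmt2a stood at 0.759% ± 0.510 for WT and 0.393% ± 0.343 for Chd8+/-. The Setd1a island stood at 1.43% ± 1.84 for WT and at 0 in all Chd8+/- libraries. As a background, 2970 of 8230 placed autosomal promoters lay in unmethylated islands.

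Of 14 genes of the DNA methylation machinery 9 were placed and 3 lay in unmethylated islands. Of the 6 in no island, Mbd4 stood at 0.344% ± 0.227 for WT and 0.475% ± 0.822 for Chd8+/- over 12 CpGs. Tet2 and Tet3 were at 0 in all libraries over 4 and 2 CpGs, which allows up to 2.68% and 5.88%. Dnmt3b, Uhrf1 and Tet1 had 0 measured CpGs. Dnmt1 stood at 0.413%, 0.433% and 3.90% for WT and 0.994%, 1.47% and 0% for Chd8+/-, with the high WT library carried by the CCGG at −117. Dnmt3a, the de novo methyltransferase, stood at 0%, 0.175% and 0% for WT and 0%, 1.82% and 2.39% for Chd8+/- over 11 CpGs and overlapped between genotypes. Kdm2b, a demethylase with a CXXC domain, stood at 0.126% ± 0.218 and 0.447% ± 0.298 (SD, n = 3). Its whole island stood at 0.0989% ± 0.171 and 0.351% ± 0.234.

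Promoters of genes used in all cells and of genes used in other organs were both found in unmethylated islands. Of 16 housekeeping genes 6 were placed and 2 were in such islands: Tbp, the TATA-binding protein, at 0.357% ± 0.619 for WT, and Polr2a, the largest subunit of RNA polymerase II, at 0.669% ± 0.452 for WT (SD, n = 3), both at 0 in all Chd8+/- libraries. Their promoters had 58 to 284 and 143 to 485 reads per library. Over the whole island, Polr2a was not at 0 in Chd8+/-, with 0.569% ± 0.256 for WT and 0.213% ± 0.220 for Chd8+/-. The Tbp island stood at 0.743% ± 0.474 for WT and at 0 in all Chd8+/- libraries. Of 19 regulators of other lineages 5 were placed and 2 were in such islands. Pax2 stood at 0%, 0.714% and 0.739% for WT and 0%, 4.76% and 1.84% for Chd8+/-, and Six2, a factor of kidney progenitors, at 0.149% ± 0.158 and 0.244% ± 0.161. Over the whole island, Pax2 stood at 0.985% ± 0.661 for WT and 0.962% ± 0.141 for Chd8+/-, and Six2 at 0.320% ± 0.261 and 0.794% ± 0.525. Of 11 Wnt pathway genes 3 were placed and Ctnnb1 was in an unmethylated island, at 0.0661% ± 0.115 and 0.144% ± 0.250. Its whole island stood at 0.357% ± 0.446 for WT and 1.32% ± 0.778 for Chd8+/-. Of 16 synapse genes 2 were placed and 0 were in unmethylated islands. Shank3 stood at 2.95% ± 1.25 for WT and 4.88% ± 1.355 for Chd8+/- over 5 CpGs. Nlgn2 was at 0 in all libraries over 1 CpG, where 10 reads in the shallowest allow up to 30%.

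Markers of the cell types of the neocortex were read for methylation only. Of 18 genes of excitatory neurons 8 were placed and 3 lay in unmethylated islands: Emx1, at 0 in all libraries, and the upper-layer factors Cux1, at 1.03% ± 0.943 for WT and 0.257% ± 0.223 for Chd8+/-, and Cux2, at 2.06% ± 3.56 for WT and 0 in all Chd8+/- libraries over 3 CpGs (SD, n = 3). Of 11 interneuron genes 4 were placed and Dlx2, which specifies these cells, stood at 0.713% ± 0.668 for WT and 0 in all Chd8+/- libraries. Over whole islands, Emx1 stood at 0.128% ± 0.222 for WT and 0.503% ± 0.871 for Chd8+/-. The Cux1 island stood at 0.300% ± 0.161 and 0.153% ± 0.123. The Cux2 island stood at 1.26% ± 1.07 and 0.279% ± 0.161, and the Dlx2 island at 0.575% ± 0.138 and 0.311% ± 0.237. Of 9 genes of microglia and endothelium 1 was placed, Flt1, a receptor for vascular endothelial growth factor, at 0.0751% ± 0.130 and 0.646% ± 0.869. The whole Flt1 island stood at 0.560% ± 0.501 for WT and 0.759% ± 0.632 for Chd8+/-. Of 10 glial genes 1 was placed and 0 lay in an unmethylated island. Of the excitatory genes outside islands, Pax6, a factor of cortical progenitors, stood at 16.5%, 2.39% and 2.99% for WT and 7.55%, 8.86% and 2.30% for Chd8+/- over 13 CpGs. The others with measured CpGs were low. Bcl11b stood at 0.541% ± 0.186 for WT and 0.433% ± 0.078 for Chd8+/- over 9 CpGs. Neurod1 was at 0 in all libraries over 2 CpGs, where 38 reads in the shallowest allow up to 7.9%. The promoters in unmethylated islands were low by the rule, so these levels do not check the makeup of the tissue.

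Of 10 germline genes 7 were placed and 0 lay in an unmethylated island, with 1 in a methylated island and 6 in no island. Besides Ddx4, the placed promoters of Mael, Sycp1 and Tex101 averaged 72.2% ± 7.05, 96.5% ± 0.207 and 95.03% ± 3.37 for WT (SD, n = 3), outside islands. Of 13 imprinted genes 4 were placed, and Grb10, a growth regulator, was in an unmethylated island. Over 4 promoter CpGs it stood at 0.768% ± 0.677 for WT and 0.371% ± 0.321 for Chd8+/-. Its whole island of 27 CpGs went the other way, at 0.659% ± 0.690 for WT and 1.22% ± 1.38 for Chd8+/-. Plagl1, an imprinted zinc finger gene, lay in a methylated island and stood at 20.7%, 97.2% and 66.6% for WT and 25.6%, 78.5% and 32.5% for Chd8+/- over 4 promoter CpGs. Its libraries scattered more than those of any unmethylated promoter named here.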

How the data were processed

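Genomic DNA of 6 neocortex samples (3 WT, 3 Chd8+/-) was read by RRBS, and groups were taken from the sample titles. Reads were handled with Trim Galore 0.4.4, Bismark 0.20.0 and SAMtools 1.9 on mm39, per the submitters' processing notes. Settings and deduplication are not given in the sources used here. The deposited tables give coverage, a count of reads per cytosine, and the percent read as cytosine, per the file headers. The authors' conversion statistics gave the unconverted percent outside CpGs, and no other score was taken from them. Methylated reads were coverage times percent, rounded, and strands were merged by adding reads. Island levels were unweighted means over CpGs. An upper limit beside a level of 0 is 3 counts over the counts summed over CpGs in the shallowest library, for counting error only. It takes counts at different CpGs as separate reads, so the true limit can be higher. Promoters (RefSeq, GRCm38.p6) were placed on mm39 by CpG spacing alone: every listed CpG had to fall on a CpG of the sequence, at least 8 of them, with the next best placement at least 3 fewer. The promoter table has no entry on chromosome 18.

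Reads summed per island or flank were tested with edgeR 4.0.16 (quasi-likelihood) in R 4.3.3, with limma 3.58.1 as an alternative, on all islands or flanks. The other steps used pandas 2.3.3 and numpy 2.4.6 in Python 3.11.15, and figures were drawn with matplotlib 3.10.9. The islands, gene lists and tests were chosen with earlier results of these data known. The named islands were the 3 with most CpGs, 3 on each side of the limit, and 3 islands and 3 flanks of smallest p in each direction. From each list at most 4 genes in unmethylated islands were named, in list order. Genes outside these islands were named for some lists and not for others. All excitatory neuron genes with measured promoter CpGs were named. The 6 promoters whose sequences are shown were chosen after their values were seen, as was the split by CCGG.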

Additional observations from a re-analysis of the deposited data

How the results depend on the processing

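The number of unmethylated islands was 6836, and 2912 with a coverage minimum of 20 reads or 3755 with at least 10 CpGs per island. The difference between genotypes in their mean level, 0.0178 points, was 0.0393 points at 20 reads, 0.0520 points for islands with a WT mean under 2%, and −0.0164 points when the Chd8+/- mean under 5% chose the islands, so its sign depends on which group chooses them. Leaving out each library in turn gave 0.00698 to 0.0316 points. Islands called by edgeR were 0 to 1 when each library was left out in turn. The 1 call came without Chd8+/- replicate 3 and was not an unmethylated island. The level at 500 to 1000 bp outside the islands, over all 6 libraries, was 13.9%, and 9.08% at 20 reads. The mean Chd8+/- level was 0.578%, and 0.545% for islands with at least 10 CpGs. The cause of these shifts was not tested. The gap between CpGs within CCGG and others was 0.919 points and lay between 0.883 and 0.941 under the alternatives run, all of which were chosen after the data were seen.

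Libraries with the same replicate number were not taken as pairs because the labels do not pair them. Over all islands their deviations from the group means correlated at 0.122, 0.0611 and 0.0676, above those of different numbers, at −0.105 to 0.029. Over the unmethylated islands alone the values were −0.0185, 0.0179 and 0.00629, against −0.0275 to 0.0249. The cause was not tested. The replicate block cannot change the mean difference (0.0178 points) in this balanced design. With it, 0 islands and 0 flanks were called by edgeR, with 44 and 117 at an unadjusted p under 0.05. Of the other values, 71 moved by less than the spread between libraries or, for counts, stayed within 1.5 times, but 2 of these changed sign: the mean difference was −6.2e-05 points when the mean of all 6 libraries chose the islands, and the difference at 500 to 1000 bp was −0.145 points without Chd8+/- replicate 3, against 0.265. The 6 named islands of smallest p kept their direction (42 values), but they were chosen by p in these same data. Leaving out a library cannot reverse an island at 0 throughout a genotype or without overlap between genotypes. The kept direction is therefore no check of them. Depth limits the level of a single island: the median island had 287 to 367 reads, summed over CpGs, in the Chd8+/- libraries. A methylated count at 1 CpG moves its level by a fraction of a point, and a read methylated at several CpGs moves it further.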
